A study of Mus musculus with 12 samples.

Results

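Col22a1, Col19a1, Col24a1, Col25a1 and Col13a1 are 5 of the 18193 genes measured in mouse embryo tongue on whole-genome Affymetrix arrays, and 10 of the 34945 probe sets with a single gene symbol belong to them. They were picked because their signal was lower in mutant than in control tongues of this same series and because most are collagens with known roles in muscle. Their differences between the genotypes therefore chose them, and these are given as a description with no test. A value is the log2 signal of a probe set, a group of short probes against 1 transcript, and the main value of a gene is its brightest probe set by the mean over the 12 arrays. Signals of different probe sets do not rank genes by abundance, because each probe set binds its target with its own strength.

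The tongues came from embryos of the C57BL/6J background at embryonic day 13.5. The 6 control samples were Myf5-Cre;Smad4flox/+ and the 6 mutant samples Myf5-Cre;Smad4flox/flox. Both groups thus carried Cre recombinase under the muscle gene Myf5. Controls kept 1 wild-type copy of Smad4, the shared signal transducer of TGF-β and BMP pathways, and mutants had both copies floxed. Cre acts only in cells with a history of Myf5 expression, so the other cells of a mutant tongue keep Smad4. Samples are labelled biological replicates. No source used here states litters, scan batches or the number of tongues per sample, and p-values therefore measure the spread between these samples.

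Collagens are triple-helical proteins of the extracellular matrix, and the smaller families differ in where they sit. Fibril-associated collagens such as collagens XIX and XXII have short triple helices broken by flexible stretches and attach to other matrix structures, collagen XXII at the junction of muscle and tendon. Transmembrane collagens such as collagens XIII and XXV span the muscle cell membrane and can be shed from it, and both are known from the contact between motor axon and muscle. Collagen XXIV is a minor fibrillar collagen, best known from developing bone.

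Arrays were alike as a whole, with correlations between 0.991 and 0.997 and medians between 6.10 and 6.18. Mutants 1 and 2 lay farthest from the controls on the leading principal component (35.0% of variance; 24.7 and 20.3), and mutants 5 and 3 nearest (2.90 and 7.11). Smad4 itself read 12.29 ± 0.07 in controls and 12.14 ± 0.27 in mutants (SD, n = 6 each; −0.15 ± 0.10 SE, limma adjusted p = 0.427), and these probe sets do not check the genotype, since cells that keep Smad4 are in the sample and no source used here states where the probes lie against the deleted part. Control 3, mutant 4 and mutant 6 carried signal of both sexes. Control 3 read 12.40 for Xist, made from the inactive X chromosome, and 6.03 for the Y-linked Eif2s3y, which lay from 3.14 to 4.01 on the other arrays with Xist that high. Mutants 4 and 6 had Eif2s3y at 9.03 and 8.88 with Xist at 8.73 and 7.88, above the 6.18 to 6.65 of the other arrays with Y-linked signal. Control 6 and mutant 6 were lowest for the 3′ probe set of 18S ribosomal RNA, at 12.65 and 11.9991, where the others read at least 13.55. All 20 myofibre markers were brighter than the median of all probe sets (6.13). The same held for all 12 mesenchyme and all 10 oral epithelium markers, so this does not set muscle apart from other tissues. Which cells of the tongue made the 5 collagens cannot be read from whole-tissue RNA.

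All 5 collagens read lower in the mutant mean, with Col22a1 and Col19a1 by far the most. The log2 differences were −1.60 for Col22a1, −1.50 for Col19a1, −0.50 for Col24a1, −0.31 for Col25a1 and −0.16 for Col13a1, with a median of −0.50 beside 0.01 over all genes. From the largest fall down, they stood at places 5, 10, 353, 686 and 1672 of 18193. Col22a1, Col19a1, Col24a1 and Col25a1, 4 of the 5, were past the threshold of 0.05 on the adjusted p as lower in limma, where 4.80% of all genes were. Every mutant was below every control for 3 of the 5, where 2.90% of all genes showed this. As the members were picked from this contrast, the counts describe the choice.

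**Figure D1:**
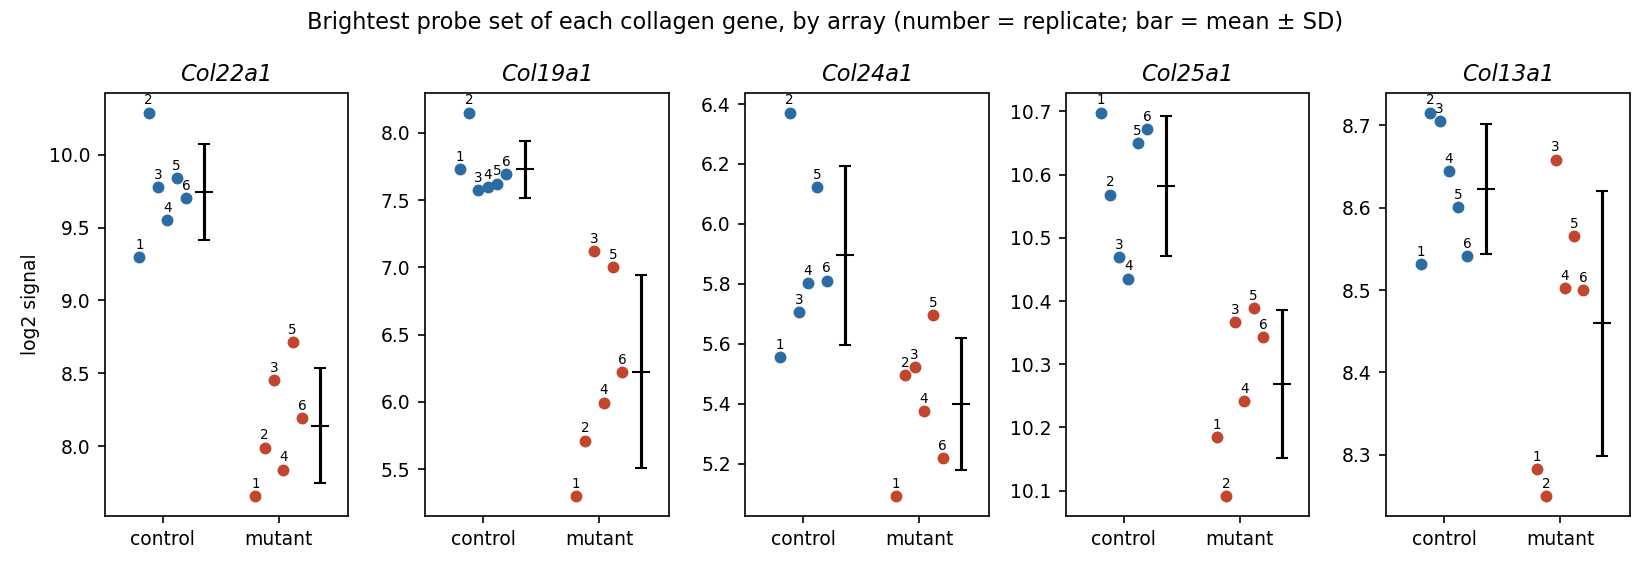
Log2 signal of the brightest probe set of each of the 5 collagen genes on each array, with controls in blue, mutants in red, the replicate number beside each point and the mean ± SD as a bar (n = 6 per group; each panel has its own axis, which does not start at 0). Groups lie apart for Col22a1, Col19a1 and Col25a1, narrowly so for Col25a1, and overlap for Col24a1 and Col13a1.

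Col22a1 encodes collagen XXII, a fibril-associated collagen of the muscle-tendon junction. Its brightest probe set (1453084_s_at) ran from 9.30 through a median of 9.74 to 10.29 in controls and from 7.65 through 8.09 to 8.72 in mutants. The lowest control, control 1, was 0.58 above the highest mutant, mutant 5, and mutant 1 was lowest of all. The group means were 9.74 ± 0.33 and 8.14 ± 0.40 (SD, n = 6 each), a difference of −1.60 ± 0.18 (SE), or 3.04-fold lower.

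A second probe set of Col22a1 (1429280_at) showed the same pattern. It went from 8.64 ± 0.37 to 7.09 ± 0.39 (SD, n = 6 each), a difference of −1.55 ± 0.19 (SE), again with every mutant below every control. The dimmest (1446851_at) stood near the median of all probe sets, at 6.22 ± 0.13 and 6.09 ± 0.06, and differed by −0.13 ± 0.06 with no mutant below the lowest control. The suffix of the brightest one marks probes that can match more than 1 transcript, and the second, which lacks it, moved by nearly as much.

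Col19a1 encodes collagen XIX, another fibril-associated collagen, made by differentiating muscle in the embryo. Its brightest probe set (1456953_at) ran from 7.57 through a median of 7.66 to 8.15 in controls and from 5.30 through 6.11 to 7.12 in mutants. The groups did not overlap, but mutants spread far more widely than controls. Mutants 1 and 2 were lowest, at 5.30 and 5.71, while mutants 3 and 5 came nearest to the controls, at 7.12 and 7.002. The means of 7.73 ± 0.22 and 6.22 ± 0.72 (SD, n = 6 each) differed by −1.50 ± 0.26 (SE), or 2.83-fold.

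The other bright probe set of Col19a1 (1421698_a_at) differed by −1.56 ± 0.24 (SE), from 7.67 ± 0.32 to 6.12 ± 0.61 (SD, n = 6 each), with every mutant below every control. The dimmest (1430676_at) was dim, under the median of all probe sets on every array. It read 4.71 ± 0.15 and 4.59 ± 0.03 and differed by −0.11 ± 0.06. Without mutants 1 and 2 the main difference was −1.14 for Col19a1 and −1.44 for Col22a1.

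Col24a1 encodes collagen XXIV and had 1 probe set (1453418_at), dim on nearly every array. Controls ran from 5.56 through 5.81 to 6.37 and mutants from 5.09 through 5.43 to 5.70. Control 2 alone stood above the median of all probe sets, and mutant 5 lay above control 1, so 5 of 6 mutants were below every control. The means of 5.89 ± 0.30 and 5.40 ± 0.22 (SD, n = 6 each) differed by −0.50 ± 0.13 (SE), or 1.41-fold. RMA, the summary method behind the deposited values, compresses differences of dim probe sets.

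Col25a1 encodes collagen XXV, a transmembrane collagen of muscle that motor axons need to enter their target. Its brightest probe set (1438540_at) ran from 10.44 through 10.61 to 10.70 in controls and from 10.09 through 10.29 to 10.39 in mutants. Every mutant was below every control, but only 0.05 separated the highest mutant, mutant 5, from the lowest control, control 4. The means of 10.58 ± 0.11 and 10.27 ± 0.12 (SD, n = 6 each) differed by −0.31 ± 0.07 (SE), or 1.24-fold. The other probe set (1421427_at) differed by −0.16 ± 0.07 (SE), from 7.16 ± 0.16 to 6.99 ± 0.10, and its groups overlapped.

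Col13a1 encodes collagen XIII, a transmembrane collagen that helps to hold the neuromuscular synapse together. Its only probe set (1422866_at) ran from 8.53 through 8.62 to 8.72 in controls and from 8.25 through 8.50 to 8.66 in mutants. Mutants 1 and 2 were lowest, and mutants 3 and 5 lay among the controls. The means of 8.62 ± 0.08 and 8.46 ± 0.16 (SD, n = 6 each) differed by −0.16 ± 0.07 (SE), or 1.12-fold, and by −0.07 without mutants 1 and 2. It was not past the threshold with or without those arrays.

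**Figure D2:**
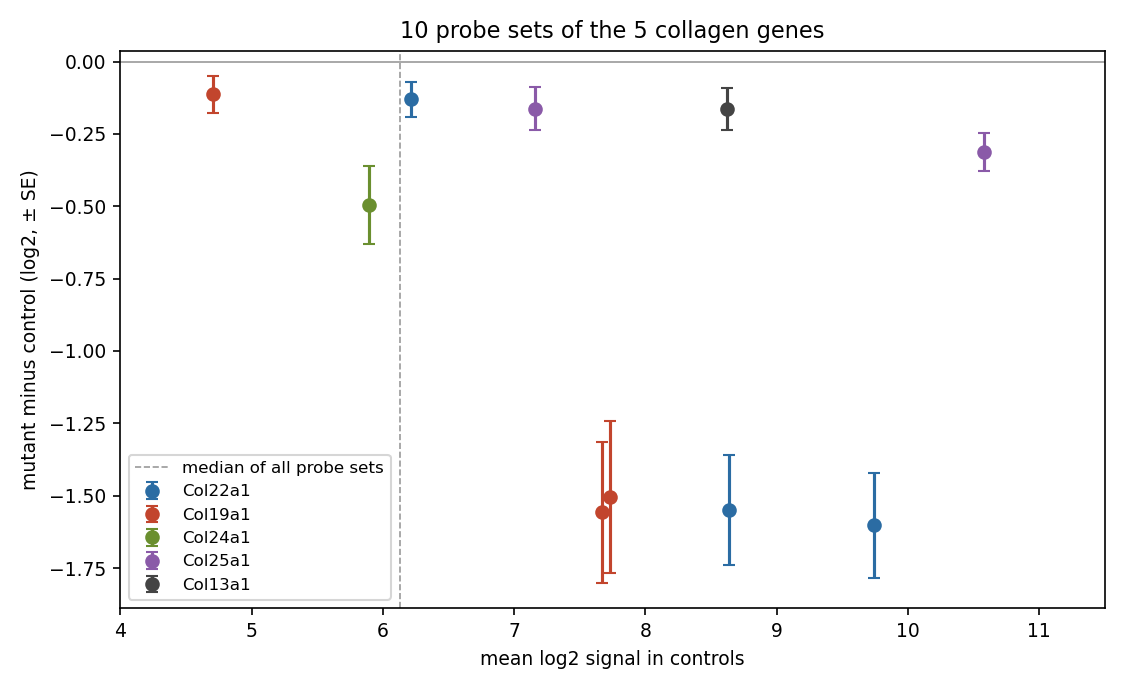
Mutant minus control difference (log2, ± SE) against mean log2 signal in controls for the 10 probe sets of the 5 collagen genes, with the median of all probe sets (6.13) as a dashed line. All 10 lie below 0, and the 4 near −1.5 to −1.6 are the brighter pairs of Col22a1 and Col19a1, while the dimmest probe set of each lies near −0.1.

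The same mutant arrays stood at the ends for most members. Mutant 1 was lowest for Col22a1, Col19a1 and Col24a1, and mutant 2 for Col25a1 and Col13a1. Mutant 5 was highest for Col22a1, Col24a1 and Col25a1, and mutant 3 for Col19a1 and Col13a1. Among controls, control 2 was highest for every member but Col25a1, for which control 1 was highest and control 2 was among the lower 3. Without mutants 1 and 2, Col22a1 and Col19a1 stayed past the threshold, while Col24a1 (−0.44) and Col25a1 (−0.25) did not, so that 2 members were called with fewer samples tested. Without the 3 arrays of mixed sex signal the differences were −1.53 for Col22a1, −1.48 for Col19a1, −0.48 for Col24a1, −0.35 for Col25a1 and −0.17 for Col13a1, and without control 6 and mutant 6 they were −1.62, −1.51, −0.48, −0.31 and −0.19 in the same order. Col24a1 lost its call in both cases, as it did without mutant 1, mutant 4, mutant 6 or control 5 alone. As this contrast chose the members, calls kept or lost describe the choice and are no independent support.

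The first 250 bases before the annotated start of transcription are shown for the called members that RefSeq's promoter table of build GRCm38.p6 holds, because these genes were lower together and the bases let a reader look for shared elements. The table held 4 of the 5 members. Capitals mark E-boxes, the letters CANNTG bound by factors such as Myf5 and Myod1, in Col19a1 (chr1:24587438-24587687, minus strand) and Col24a1 (chr3:145292222-145292471, plus strand). In Col25a1 (chr3:130180595-130180844, plus strand) they mark both copies of the longest exact repeat. Each reads 5′ to 3′ on the strand of the gene.
Col19a1: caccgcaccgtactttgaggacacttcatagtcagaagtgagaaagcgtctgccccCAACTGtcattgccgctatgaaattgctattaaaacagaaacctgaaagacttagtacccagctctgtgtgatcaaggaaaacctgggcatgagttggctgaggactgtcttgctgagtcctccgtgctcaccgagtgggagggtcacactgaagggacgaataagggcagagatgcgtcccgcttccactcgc
Col24a1: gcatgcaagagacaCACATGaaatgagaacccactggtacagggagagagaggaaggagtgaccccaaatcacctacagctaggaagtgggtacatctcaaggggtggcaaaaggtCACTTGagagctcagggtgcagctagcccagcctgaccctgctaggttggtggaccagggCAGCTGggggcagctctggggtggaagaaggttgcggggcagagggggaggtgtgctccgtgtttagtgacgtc
Col25a1: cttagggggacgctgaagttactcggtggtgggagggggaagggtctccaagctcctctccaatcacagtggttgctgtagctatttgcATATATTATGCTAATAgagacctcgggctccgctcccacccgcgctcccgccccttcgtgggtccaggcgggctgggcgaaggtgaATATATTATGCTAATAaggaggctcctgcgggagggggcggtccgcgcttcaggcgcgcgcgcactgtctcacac
None of the motifs searched for occurred in all 4 windows. Both strands were searched, and Col24a1 held 3 E-boxes, Col19a1 and Col13a1 held 1 each and Col25a1 none, while 66% of 27025 promoter windows of this length held at least 1. The form CAGCTG, an overlapping subset of E-boxes, occurred once in Col24a1 (74 to 69 bases before the start) and in 12.8% of all windows. The SMAD element CAGAC, or GTCTG on the other strand, occurred once in Col19a1 and in 42.1% of all windows, and CACCTG and the M-CAT element CATTCC occurred in none of the 4. The repeat ATATATTATGCTAATA of Col25a1 is 16 bases long, with copies starting 161 and 75 bases before the start, and 2.01% of all windows held an exact repeat of that length or more. The first copy overlaps the octamer ATTTGCAT, present in 1.61% of windows. The repeat and octamer were looked for after the sequence was seen, and a match is not a binding site.

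Among the other collagens none passed as lower, and 7 of 37 measured rose, beside 6.30% of all genes called higher. The median difference of the 37 was 0.05, beside 0.01 over all genes, and 28 of them lay above 0. Without mutants 1 and 2, 4 of them were called higher, and 5 without the 3 arrays of mixed sex signal. Over all genes, those called higher went from 1147 to 379 and 440 in these 2 settings. Without control 1, Col14a1 (−0.41, adjusted p = 0.0232) and Col6a2 (−0.20, adjusted p = 0.0211) passed as lower, both named after their values were seen.

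Fibril-associated relatives of collagens XIX and XXII went the opposite way where they passed. Of 7 measured, the 3 chains of cartilage collagen IX rose and none fell, beside 6.30% of all genes called higher and 4.80% called lower. Col9a1 rose by 0.71 ± 0.13 (SE, limma adjusted p = 0.00381), Col9a2 by 0.69 ± 0.11 (0.00128) and Col9a3 by 0.64 ± 0.10 (0.00168), each with every mutant above every control, as in 3.40% of all genes. Of 8 cartilage and bone markers 2 were higher and 1 lower, with 6 under the median signal and list means from 5.31 to 5.43 on control and from 5.36 to 5.55 on mutant arrays, and their part in these rises was not tested. Col12a1 and Col14a1, fibril-associated collagens of tendon and connective tissue, read 0.21 and −0.32 and did not pass (adjusted p = 0.470 and 0.0983). Col9a1 is the next protein-coding gene to Col19a1 on chromosome 1, so neighbouring collagen genes differed in opposite directions. By their brightest probe sets, other measured neighbours lay between −0.15 (Lmbrd1, beside Col19a1) and 0.05 (Sec24b, beside Col25a1), and none of them passed. Dimmer probe sets of these genes had the opposite sign, at 0.15 and 0.08 for Lmbrd1 and −0.16 for Sec24b. These neighbours were looked up after the data were seen.

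Fibrillar collagens, the class of Col24a1, held 2 risers of 10 and no fall, beside 6.30% of all genes called higher and 4.80% called lower. Col11a1, a cartilage fibril collagen, rose by 0.44 ± 0.08 (SE, adjusted p = 0.00331), and Col5a2, which sets fibril width, by 0.23 ± 0.05 (0.00730). The main interstitial collagens Col1a1, Col1a2 and Col3a1 read 0.29, 0.13 and 0.03 and did not pass. Of the other transmembrane collagens, the relatives of Col25a1 and Col13a1, the epithelial Col17a1 rose by 0.46 ± 0.10 (0.0117) and Col23a1 read 0.08 (adjusted p = 0.563). Without mutants 1 and 2, Col5a2 read 0.20 (adjusted p = 0.0504) and Col17a1 0.33 (0.0658), and neither passed.

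None of 11 basement membrane and network collagens passed, and Col8a1 came nearest at 0.35 ± 0.13 (SE, adjusted p = 0.118). Of 7 microfibril and anchoring collagens, Col7a1 of epithelial anchoring fibrils rose by 0.26 ± 0.08 (adjusted p = 0.0398), a call lost without mutants 1 and 2 (0.24, adjusted p = 0.165) and on leaving out any 1 of 9 single arrays (0.22 to 0.27, adjusted p from 0.0519 to 0.0939). Markers of oral epithelium (5 of 10 higher, none lower) and mesenchyme (7 of 12 higher, 2 lower) moved in the same arrays. Over all genes, 6.30% were called higher and 4.80% lower. The list mean of epithelium ran from 10.62 to 11.05 on control arrays and 11.05 to 11.38 on mutant arrays, that of mesenchyme from 10.03 to 10.13 and 10.17 to 10.42, and their part in these rises was not tested.

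**Figure D3:**
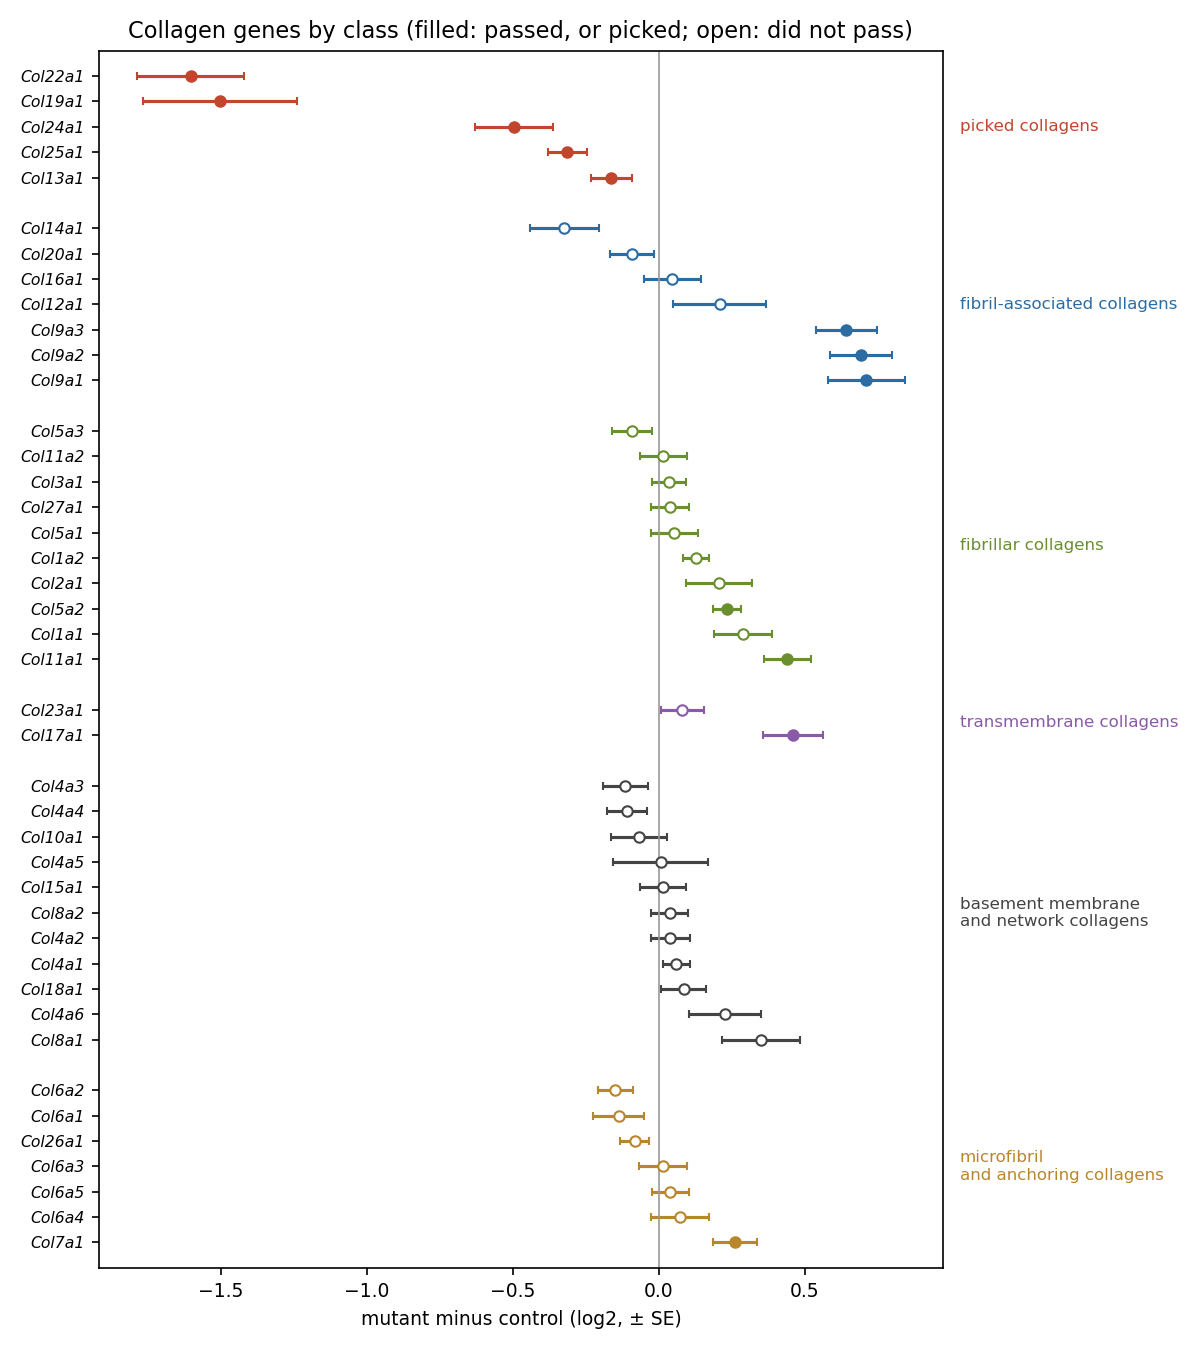
Mutant minus control difference (log2, ± SE) of the 5 picked collagens and 37 others by class, from the brightest probe set of each gene; filled symbols passed or were picked, open ones did not pass. Col22a1 and Col19a1 lie near −1.6 and −1.5, far left of all others, and the collagen IX chains lie furthest right at 0.64 to 0.71.

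Of 27 enzymes and chaperones that make and process collagen 2 rose and 0 fell, a share of risers near the 6.30% of all genes, and the median was 0.06. Pcolce2, an enhancer of procollagen cleavage, rose by 0.56 ± 0.09 (SE, adjusted p = 0.00159), and Bmp1, the procollagen C-proteinase, by 0.21 ± 0.05 (0.0207), lost without mutants 1 and 2 (0.17, adjusted p = 0.122), without mutant 1 alone or without control 4 (0.19 in each, adjusted p = 0.0511 at the lowest). The collagen chaperone Serpinh1 and the prolyl hydroxylase P4ha1 read 0.04 and −0.04, and Furin, the protease that sheds transmembrane collagens, read 0.00.

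Among 11 collagen receptors, Adgrg6, an adhesion receptor that binds collagen IV, fell by 0.74 ± 0.10 on the log2 scale (SE, adjusted p = 0.000695), and its other probe set differed by −0.48. Ptprf and Ptprs, of the receptor phosphatase family that binds collagen XXV, rose by 0.21 ± 0.05 (0.0105) and 0.19 ± 0.06 (0.0399), and their relative Ptprd read −0.20 (adjusted p = 0.186). Without mutants 1 and 2 the rises did not pass (0.18, adjusted p = 0.0778, and 0.19, adjusted p = 0.148), and that of Ptprs also ended on leaving out any 1 of 8 single arrays (0.16 to 0.20, adjusted p from 0.0633 to 0.0828). The dimmer probe sets of Ptprs lay between −0.01 and 0.01. The integrin β1 chain Itgb1 read −0.01.

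Genes of the neuromuscular synapse, where collagens XIII and XXV act, were lower on balance. Of 12, 7 fell and 1 rose, beside 4.80% of all genes called lower and 6.30% called higher. The median was −0.45, beside −0.66 for the 20 myofibre markers, whose part in this list was not tested. Rapsn, which clusters acetylcholine receptors, fell by 1.29 ± 0.19 on the log2 scale (SE, adjusted p = 0.000868), the receptor subunits Chrnb1 and Chrna1 by 1.03 ± 0.15 (0.000846) and 0.71 ± 0.10 (0.000918), and Ache, the acetylcholinesterase, by 0.90 ± 0.10 (0.000331). The kinase Musk, to which collagen XIII is linked, read −0.50 ± 0.15 and just passed (adjusted p = 0.0446), a call that ended without mutants 1 and 2 (−0.30, adjusted p = 0.119) and on leaving out any 1 of 8 single arrays (−0.51 to −0.47, adjusted p from 0.0666 to 0.0929). Agrn, which encodes the clustering signal agrin, rose by 0.22 ± 0.06 (adjusted p = 0.0280), but read 0.06 (adjusted p = 0.609) as the mean of its probe sets, and the call ended without mutants 1 and 2 (adjusted p = 0.128) and on leaving out any 1 of 7 single arrays (0.19 to 0.22, adjusted p from 0.0521 to 0.0685). Markers of neurons moved the other way in these arrays, with 8 of 11 higher and 0 lower and list means from 7.58 to 7.88 on control and from 8.05 to 8.76 on mutant arrays, and their part in the synapse list was not tested. Colq, the collagen-like tail that anchors acetylcholinesterase, was dim and read −0.11 (adjusted p = 0.334). Agrn, Musk, Ptprd, Colq and the other genes given with values that did not pass were named after these were seen.

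Of 15 genes of the muscle-tendon junction, the site of collagen XXII, 6 fell and 0 rose, beside 4.80% of all genes called lower. The median was −0.23, beside −0.66 for the 20 myofibre markers, whose part in this list was not tested either. Ankrd1, a stretch-responsive protein of the sarcomere, fell by 1.67 ± 0.26 on the log2 scale (SE, adjusted p = 0.00124), and Itga7, the laminin-binding integrin of muscle, by 0.69 ± 0.09 (0.000458). Thbs4, a thrombospondin of the junction, fell by 0.45 ± 0.09 (0.00440) and the integrin-linked kinase Ilk by 0.29 ± 0.06 (0.00688). The tendon genes Scx, Tnmd and Mkx read 0.02, −0.23 and 0.20, and none of them passed (adjusted p = 0.864, 0.453 and 0.458). With the 3 arrays of mixed sex signal left out, 3 junction genes passed, and Thbs4 (−0.38, adjusted p = 0.0566) and Ilk (−0.26, adjusted p = 0.0735) did not. Of 7 tendon markers, 3 of them just named and Thbs4 also in the junction list, 2 fell and 0 rose, 5 lay below 0, and the median was −0.16. Besides Thbs4 the other was Fmod, a collagen-binding proteoglycan, which read −0.43 ± 0.12 (SE, adjusted p = 0.0353), a call that ended on leaving out any 1 of 7 single arrays (−0.43 to −0.37, adjusted p from 0.0584 to 0.0804). The tendon list mean ran from 7.94 to 8.50 on control arrays and from 7.70 to 8.20 on mutant arrays, so these overlapped, and its part in the junction result was not tested.

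**Figure D4:**
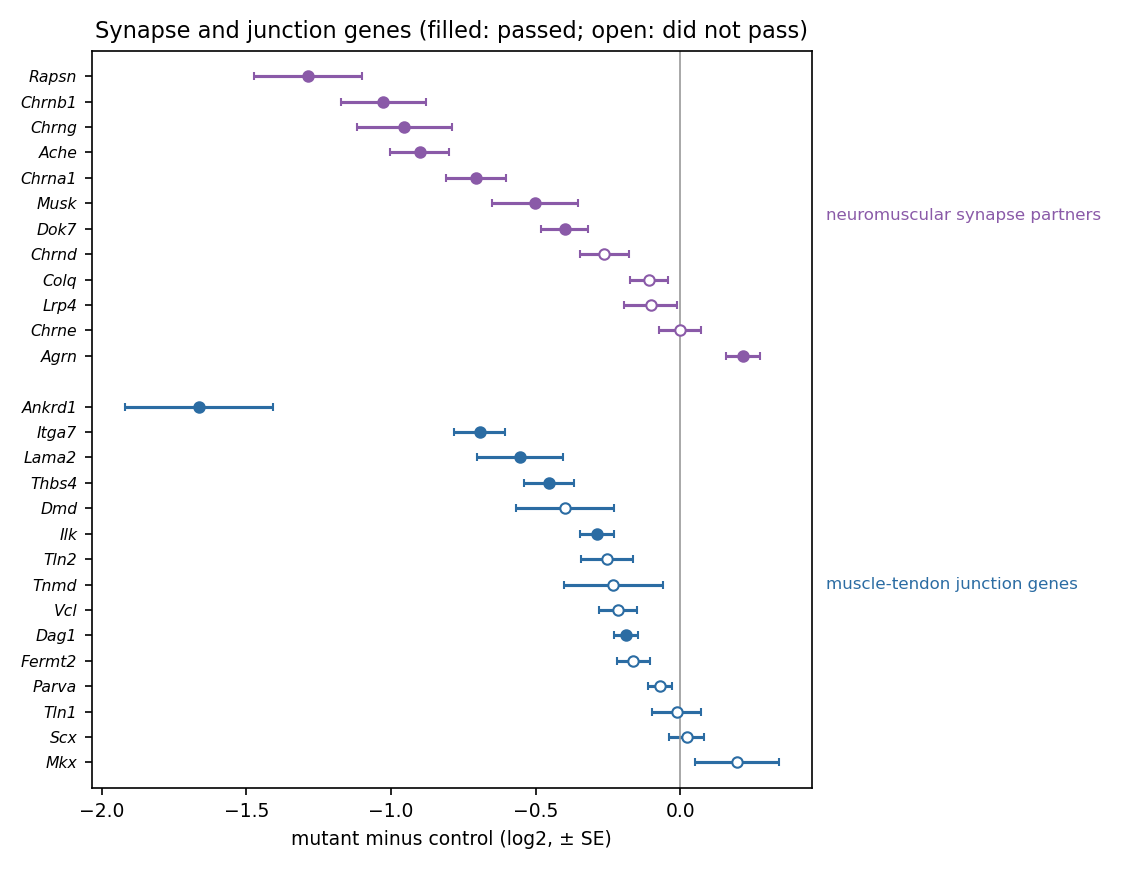
Mutant minus control difference (log2, ± SE) of 12 neuromuscular synapse genes and 15 muscle-tendon junction genes, from the brightest probe set of each gene; filled symbols passed and open ones did not. Rapsn (−1.29) and Ankrd1 (−1.67) are lowest in their lists, and the tendon gene Scx lies at 0.02.

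Muscle markers as a whole were lower in the same arrays, and the members fell on both sides of them. Of 20 myofibre markers 19 fell and 0 rose (median −0.66), and their mean per array ran from 12.21 to 12.77 in controls and from 11.62 to 12.003 in mutants. Of 11 myoblast and progenitor markers 9 fell and 0 rose (median −0.74), with array means of 9.51 to 9.89 and 8.54 to 9.28. Over all genes, 4.80% were called lower and 6.30% higher. In whole tissue, fewer muscle cells and less RNA per muscle cell cannot be told apart. The control means of the myofibre markers ran from 8.54 (Ckm) to 14.67 (Actc1), where the highest value on any array was 15.09. Whether differences are compressed at such brightness was not tested, which limits comparisons of the members with this list.

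Col22a1 was lower than each of the 20 myofibre markers by its difference, of which Tnnt3, a fast troponin T, came nearest at −1.51, and 1 of the 11 progenitor markers, Myf5 at −1.81, fell more. Taken as the deviation from the control mean minus that of the myofibre list on the same array, Col22a1 ran from −0.19 to 0.33 in controls and from −1.20 to −0.46 in mutants, with a mutant mean of −0.87 ± 0.30 (SD, n = 6). The groups did not overlap on this scale either. Col19a1 had a mutant mean of −0.78 ± 0.65 on that scale, with 4 of 6 mutants below every control. Mutants 3 and 5 read 0.08 and −0.16 there, within the control range of −0.24 to 0.35, while mutants 1 and 2 read −1.49 and −1.46.

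Col24a1, Col25a1 and Col13a1 were lowered less than the myofibre list, whose mean differed by −0.73. Relative to it the mutant means were 0.23 ± 0.14, 0.41 ± 0.18 and 0.56 ± 0.21 (SD, n = 6 each), and no mutant lay below the controls. Of the 20 myofibre markers, 16 differed by more than Col24a1 and 19 by more than Col25a1 and Col13a1. These relative values come from the contrast that chose the members and carry no test. Cells outside muscle may add to the signal of a gene, and how much was not tested.

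**Figure D5:**
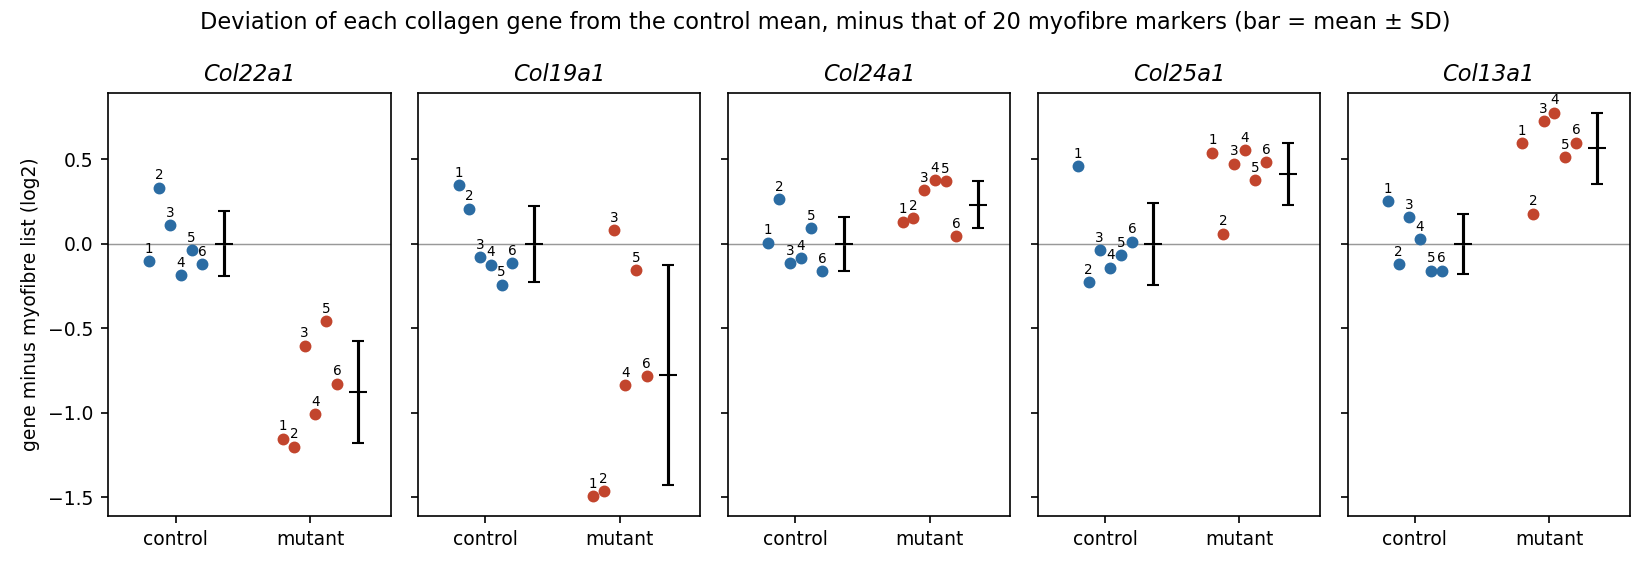
Deviation of each collagen gene from its control mean minus that of the mean of 20 myofibre markers on the same array (log2), with controls in blue, mutants in red, replicate numbers beside the points and mean ± SD as bars (n = 6 per group). Mutants of Col22a1 lie from −1.20 to −0.46, below all controls, and those of Col13a1 from 0.18 to 0.78, mostly above them.

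Genes whose pattern over the 12 arrays was most like that of each member were found by the root mean square difference of their deviations from the control mean, among 12165 other genes at or above the median signal (12166 for Col24a1, which lies below it). For Col22a1 these were Sln, the sarcolipin of the sarcoplasmic reticulum (0.15 log2 units apart), Tecrl (0.18) and Mustn1, a nuclear protein of the musculoskeletal system (0.19), which differed by −1.63, −1.43 and −1.46 between genotypes. For Col19a1 they were Il33, an interleukin (0.25), 2310002L09Rik (0.26) and Rapsn (0.27). The pattern of Col19a1, with its wide spread of mutants, had less close matches than that of Col22a1.

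The pattern of Col24a1 was nearest to A530047J11Rik (0.10), Acsl4, a fatty acid ligase (0.11), and Jph1, the junctophilin that joins T-tubule and sarcoplasmic reticulum (0.11), with differences of −0.51, −0.42 and −0.54. That of Col25a1 was nearest to Mtr, methionine synthase (0.06), Castor2 (0.07) and Fxyd6 (0.07), and that of Col13a1 to Rrp15 (0.06), Uqcrfs1, a respiratory chain subunit (0.07), and Ruvbl1 (0.07). A small distance comes easily to genes that move little, as the members themselves deviated by 0.24 for Col25a1 and 0.16 for Col13a1 on this measure, against 1.18 for Col22a1 and 1.17 for Col19a1. The likeness describes these 12 arrays, which share tissue, platform and normalisation.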

How the data were processed

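The deposited values were log2 signals per probe set that the authors made with RMA, per the submitters' processing notes. No source used here names the software. The values ran from 2.57 to 15.09, from which base 2 was read. Because RMA gives all arrays one distribution, a change common to most genes is invisible. Precision is limited by the number of arrays.

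Of 45101 probe sets, 64 controls were left out, and 34945 had 1 gene symbol in the platform annotation, 932 several and 9160 none. Genes (18193) were represented by their brightest probe set. The comparison of genotypes used lmFit and eBayes of limma 3.58.1 under R 4.3.3 (no covariate, 2-sided, Benjamini-Hochberg over all genes, threshold 0.05). It was also run on simulated data with independent noise per gene, a setting without the structure that the real arrays share. The members and the 21 gene lists were chosen with earlier results of these data known. In each list the text names up to 4 passing genes by smallest p (2 in marker lists), or the nearest one, and for each member the 3 genes of most like pattern. Alternatives were other normalisations, probe set rules, variance models, array weights, the replicate block and arrays left out. For promoters, RefSeq's first window per gene (GRCm38.p6) was used, without its 50 bases after the start.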

Additional observations from a re-analysis of the deposited data

Results flagged for a closer look

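An array stood apart from the other 5 of its group by Dixon's ratio in 10 of the 148 groups of 6 arrays examined, over the members' probe sets and the named genes, where chance gives about 1 in 20. Among the members this was the case for Col19a1 (1456953_at) in controls, where control 2 read 8.15 and the next 7.73. Control 2 was likewise highest for Il33, at 8.06 against 7.39.

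Control 1 was the lowest control for several muscle and junction genes. It read 12.38 for Sln (next 12.82), 12.43 for Thbs4 (next 12.81), 13.26 for Tnnc1 (next 13.38), 10.91 for Chrna1 (next 11.14) and 14.02 for the smooth muscle actin Acta2 (next 14.11). It was also the lowest control for Col22a1, Col24a1 and Col13a1 and the highest for Col25a1.

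Ankrd1 read 7.81 on mutant 5 and at most 6.95 on the other mutants. Smad4 read 11.58 on mutant 1, where the next mutant read 12.18. Col11a1 read 9.30 on control 6 (next 9.09).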

How the results depend on the processing

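All 5 members kept a difference below 0 under every alternative run. They were picked for their falls in these same arrays, so this outcome was nearly fixed in advance and is no support. The other variance model and the replicate block leave each difference as it is by construction. With 1 array left out the difference ran from −1.72 to −1.49 for Col22a1, −1.68 to −1.32 for Col19a1, −0.56 to −0.40 for Col24a1, −0.34 to −0.28 for Col25a1 and −0.20 to −0.12 for Col13a1. For the members with several probe sets, their choice moved values most. With the mean of all probe sets Col22a1 differed by −1.09, and the dimmest probe sets alone gave −0.13 for Col22a1, −0.11 for Col19a1 and −0.16 for Col25a1. Of those with 1 probe set, Col13a1 moved most without mutants 1 and 2 (−0.07) and Col24a1 without control 2 (−0.40). Members called lower numbered 3 to 4 with 1 array left out and 2 without mutants 1 and 2; Col24a1 was not tested with dim probe sets left out.

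Genes called lower (873) numbered 496 without mutants 1 and 2, 396 without control 3, mutant 4 and mutant 6, and 665 to 899 with 1 array left out. Genes called higher (1147) numbered 379, 440 and 733 to 1209, the lowest of these without mutant 1 (733) and mutant 2 (763). Other collagens called higher (7) numbered 4 without mutants 1 and 2 and 6 to 8 with 1 array left out, and those called lower (0) 0 to 2. Junction genes called lower (6) numbered 3 without control 3, mutant 4 and mutant 6 and 5 to 8 with 1 array left out, synapse genes (7) 6 to 8, and myofibre markers (19) 17 to 19. Fewer samples were tested in each of these, and the cause of the changes was otherwise not tested. Same-numbered arrays correlated at 0.12, 0.21, −0.06, 0.24, 0.14 and 0.24 in their deviations from the group means, with a median of −0.02 between different numbers. As 1 of the 6 was not over 0.1 and the labels tie the numbers to nothing shared, they were not taken as pairs. Most values lean towards pairs, though, and control 6 and mutant 6 shared the lowest 3′ signal of 18S ribosomal RNA (12.65 and 11.9991). Whether the numbers stand for shared handling was not tested. With the replicate block 885 genes were lower and 1047 higher, 4 members were called, and Col7a1 (adjusted p = 0.0620), Ptprs (0.0567) and Agrn (0.0684) lost their calls. In this balanced design the block leaves every difference as it is (Col22a1 −1.60) and changes only its error.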
